A study of Homo sapiens with 24 samples.

Results

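The response of 2 renal cell carcinoma lines to 12 h of dasatinib was compared gene by gene, as the change in Caki-1 minus the change in 769-P. The comparison rested on 12 of the 24 arrays of the series, 3 in each of 4 groups: Caki-1 with dasatinib, Caki-1 with DMSO, 769-P with dasatinib and 769-P with DMSO. It covered 12862 genes of the 18134 that had a probe set naming 1 gene only. Each gene was read from the probe set with the highest mean over the 24 arrays. A gene was tested if its mean exceeded the 40th percentile of probe set means, 5.379 in Caki-1 and 5.362 in 769-P on the log2 scale, in at least 1 line.

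The series measured mRNA on Affymetrix PrimeView arrays, which read mostly the 3' part of transcripts. Dasatinib was given at 1 µM for 6, 12 or 24 h, and the vehicle DMSO arrays carried no time, so the 3 DMSO arrays of a line served every time. Hours of exposure therefore cannot be told apart from hours in culture. Caki-1 was established from a skin metastasis and carries wild-type VHL, while 769-P came from a primary clear-cell tumour and has mutated VHL. Each line is a single model of renal carcinoma, so a difference between them is a difference between these cultures and not between kinds of tumour. Arrays of a group are labelled biological replicates, with no word on how the cultures were kept apart, so p-values measure the spread between these arrays.

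Dasatinib blocks SRC family and ABL kinases along with several receptor kinases. SRC family kinases pass signals from integrins and growth factor receptors to the RAS, ERK, PI3K and YAP pathways, and they control the actin cytoskeleton at focal adhesions. ERK signalling is read at the mRNA level through immediate-early genes and through feedback inhibitors such as the DUSP, SPRY and SPRED genes. SRF joins ERK signalling to actin, since it drives both immediate-early genes and actin cytoskeleton genes. FOXO factors act in the other direction, entering the nucleus when PI3K and AKT signalling is low.

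Values ran from 2.8 to 15.18 on the log2 scale, array medians lay between 6.008 and 6.06, and arrays of a group correlated at 0.9943 to 0.9975 across probe sets. No 2 arrays were identical, and the number of arrays limits the precision. All 6 renal epithelial markers measured, PAX8, PAX2, LHX1, CDH6, KRT8 and KRT18, had group means above the filter level (5.71 to 12.49). Leukocyte markers lay between 3.39 and 6.19 in the group means, with 3 of 7 above the filter level in some group, and PTPRC was at 3.39 to 3.46. Endothelial markers lay between 3.53 and 6.17, with 2 of 6 above it. Because RNA was taken from whole cultures, fewer cells of a kind and less RNA per cell cannot be told apart.

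The lines differed in their 12 h response at 2434 genes, 18.9% of those tested, at an adjusted p under 0.05 (limma, Benjamini-Hochberg). The difference was above 0, meaning a more upward change in Caki-1, at 1115 genes (8.67%) and below 0 at 1319 genes (10.3%). It reached 1 on the log2 scale at 503 genes (3.91%), 284 above (2.21%) and 219 below 0 (1.7%). The median difference over all tested genes was -0.007 and the median SE was 0.151, so the comparison as a whole was centred. Within a line, dasatinib changed 6007 genes in Caki-1 (46.7%, with 23.2% rising and 23.5% falling) and 6135 in 769-P (47.7%, with 25.1% rising and 22.6% falling). Of 3935 genes that rose in both or fell in both, 3218 were not called in the difference.

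A called difference came about in several ways. In 240 of the 2434 genes (9.86% of these and 1.87% of all tested) the gene rose in 1 line and fell in the other. In 623 (25.6%) only the Caki-1 change was called, and in 819 (33.6%) only the 769-P change. In 717 (29.5%) both lines moved the same way by unequal amounts. Among genes that fell in both lines, 154 fell further in Caki-1 and 214 further in 769-P. Among genes that rose in both, 107 rose further in Caki-1 and 242 further in 769-P. A gene that stayed under the filter level in 1 line in both conditions has no measured response there. Caki-1 was at such a low level at 44 genes above and 82 below 0, and 769-P at 67 above and 58 below 0.

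**Figure D1:**
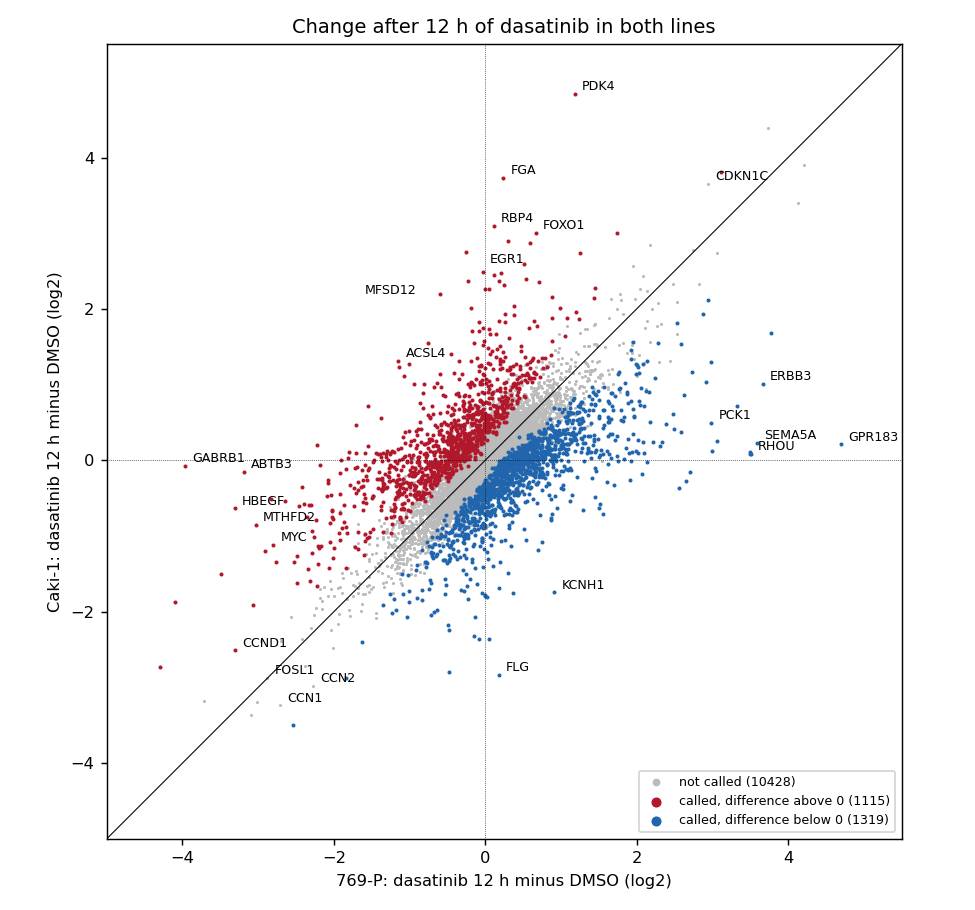
Change after 12 h of dasatinib relative to DMSO (log2) in Caki-1 on the vertical axis and in 769-P on the horizontal axis, 1 point per tested gene, with equal changes on the diagonal. Red points are the 1115 genes called with a difference above 0 and blue points the 1319 called below 0. FOSL1 and CCN1 lie near the diagonal among the 10428 genes not called, while PDK4, FGA and GPR183 lie far from it.

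The ERK feedback and immediate-early genes were, with the SRF and actin genes, the list with the greatest share above 0. Of its 40 tested members, 19 (47.5%) had a difference above 0, beside 8.67% of all genes, and 2 (5%) below 0, beside 10.3%. The median change was -0.01 in Caki-1 and -0.61 in 769-P, and the median difference was 0.41, beside -0.007 over all genes. In Caki-1 15 members fell and 14 rose (beside 23.5% and 23.2% of all genes), whereas in 769-P 22 fell and 5 rose (beside 22.6% and 25.1%). The lists were drawn up with earlier results of these data known, so these counts describe the members and are no independent test.

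EGR1, the zinc-finger factor that is among the first genes switched on by ERK, stood at the top of this list. It read 8.42, 8.28 and 8.31 on the Caki-1 dasatinib arrays, against 5.49, 6.05 and 6.03 with DMSO. In 769-P it read 6.40, 6.94 and 6.61 with dasatinib, against 6.82, 7.01 and 6.21 with DMSO. The groups did not overlap in Caki-1 and overlapped in 769-P. The difference was 2.52 ± 0.25 (SE, adjusted p = 8.15e-08). With the mean of all its probe sets in place of the brightest, the difference was 1.41.

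ETV1 and ETV5, ETS family factors induced by ERK, differed in another way. ETV1 read 8.80, 8.88 and 8.93 on the Caki-1 dasatinib arrays, against 8.35, 8.08 and 8.02 with DMSO. In 769-P it read 6.58, 7.14 and 7.40 with dasatinib, against 8.43, 8.86 and 8.48 with DMSO. It thus rose in Caki-1 and fell in 769-P, with no overlap in either line, and the difference was 2.27 ± 0.23 (adjusted p = 1.82e-07). ETV5 fell in both lines, by 0.54 in Caki-1 and by 2.65 in 769-P, a difference of 2.11 ± 0.26.

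The phosphatase DUSP5, which binds ERK in the nucleus, rose by 1.14 in Caki-1 and fell by 0.60 in 769-P, and JUNB, an AP-1 subunit, rose by 0.35 in Caki-1 and fell by 0.61 in 769-P. SPRED1 and SPRED2, inhibitors of RAS activation, were not called in Caki-1, where their changes were -0.26 and -0.03, and fell in 769-P by 1.36 and 1.49. IER2 and IER3, immediate-early genes, had uncalled changes of -0.11 and 0.08 in Caki-1 and fell by 1.28 and 1.26 in 769-P. SPRY2, a Sprouty inhibitor of receptor signalling, rose by 0.65 in Caki-1 with a change of -0.22 in 769-P. KLF4, a zinc-finger factor, fell by 0.59 in Caki-1 and fell by 2.30 in 769-P, and PHLDA1 fell by 0.76 in Caki-1 and fell by 2.02 in 769-P. LIF, an interleukin-6 family cytokine, fell by 0.40 and 1.68, with a difference of 0.68 in place of 1.29 when its probe sets were averaged.

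The 2 members below 0 were ATF3 and FOSL2, both bZIP factors that pair with AP-1 subunits. ATF3 rose by 0.68 in Caki-1 and by 1.95 in 769-P, and FOSL2 by 0.35 and 1.12. Several members often used to read the pathway were not called. FOSL1, an AP-1 subunit, read 7.37, 7.34 and 7.40 on the Caki-1 dasatinib arrays, against 10.03, 10.36 and 10.37 with DMSO, and 6.50, 6.36 and 6.45 on the 769-P dasatinib arrays, against 9.65, 9.08 and 9.22 with DMSO. It fell by 2.88 in each line and the difference was 0.002 ± 0.28 (adjusted p = 0.998). The difference of DUSP6, the cytoplasmic ERK phosphatase, was 0.52 ± 0.26 (adjusted p = 0.17), that of SPRY4 0.32 ± 0.24, that of FOS 0.09 ± 0.12 and that of EPHA2, a receptor induced by ERK and bound by dasatinib, 0.20 ± 0.18.

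**Figure D2:**
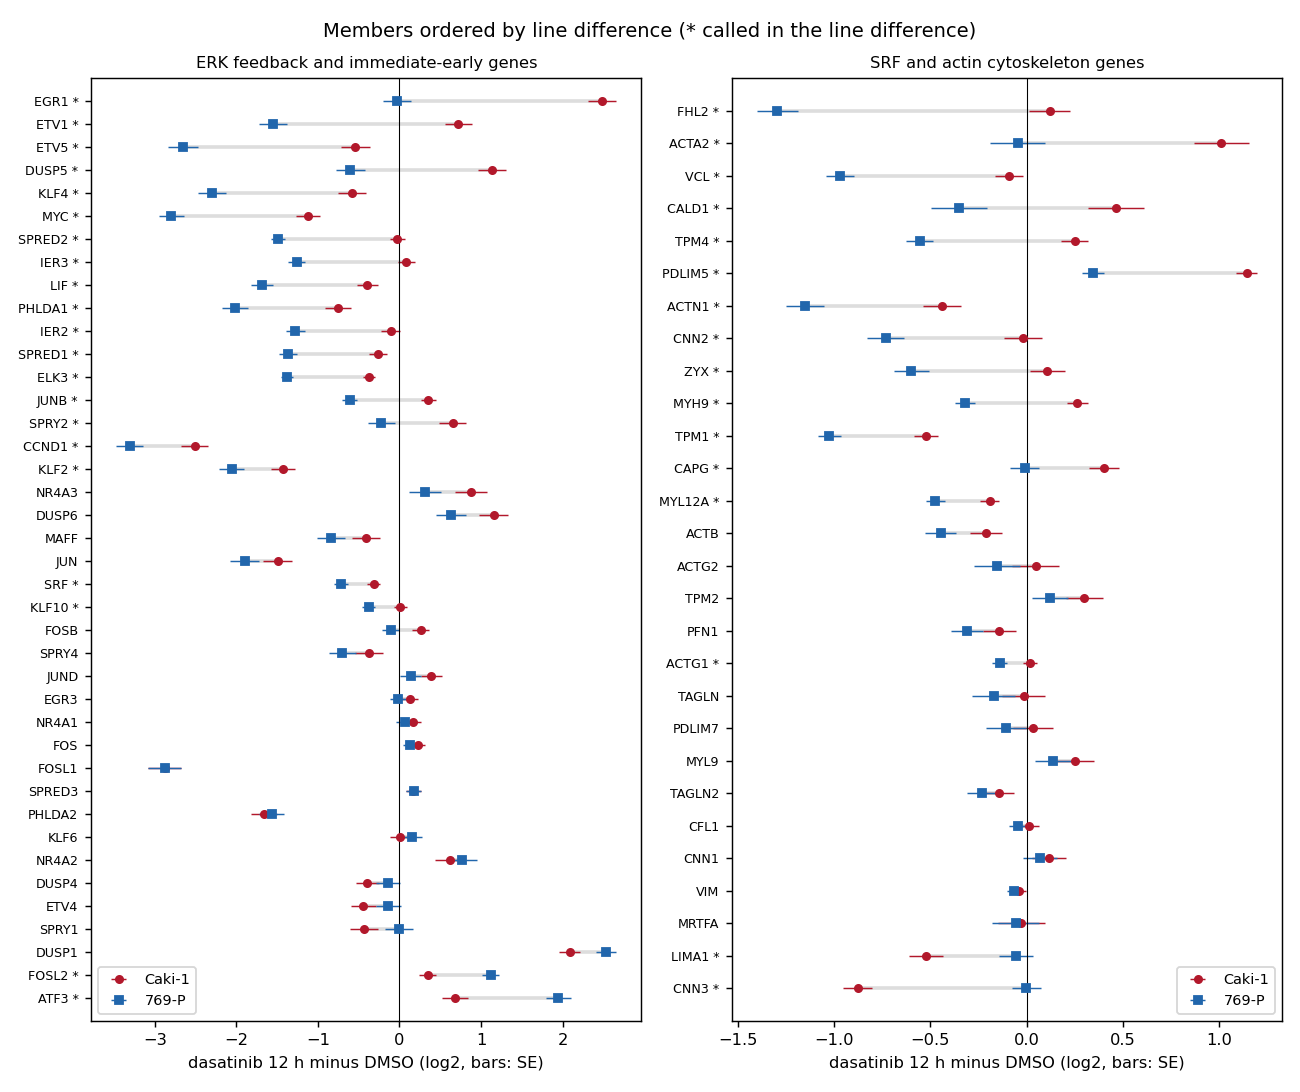
Changes after 12 h of dasatinib (log2, bars show SE, 3 arrays per group) in Caki-1 (red circles) and 769-P (blue squares) for the 40 ERK feedback and immediate-early genes and the 28 SRF and actin genes tested, ordered by the difference, with an asterisk at called members. From EGR1 and FHL2 downward most asterisked members have the 769-P point to the left, and ATF3, FOSL2, CNN3 and LIMA1 have it to the right.

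The SRF and actin cytoskeleton genes had 14 of 28 tested members above 0 (50%) and 2 below (7.14%), beside 8.67% and 10.3% of all genes. Their median difference was 0.22. In Caki-1 6 members fell and 8 rose, beside 23.5% and 23.2% of all genes. In 769-P 13 fell and 1 rose, beside 22.6% and 25.1%. FHL2, a LIM-domain cofactor and SRF target, read 11.86, 11.56 and 11.46 on the Caki-1 dasatinib arrays, against 11.52, 11.48 and 11.52 with DMSO. In 769-P it read 10.30, 10.28 and 10.44 with dasatinib, against 11.59, 11.68 and 11.65 with DMSO. The Caki-1 groups overlapped and the 769-P groups lay more than a unit apart, for a difference of 1.42 ± 0.15 (adjusted p = 2.43e-07).

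ACTA2, smooth muscle actin, showed the reverse arrangement. It read 7.28, 7.72 and 7.55 on the Caki-1 dasatinib arrays, against 6.40, 6.49 and 6.62 with DMSO, and 11.74, 11.43 and 11.41 on the 769-P dasatinib arrays, against 11.71, 11.55 and 11.45 with DMSO. It rose in Caki-1 without overlap and the 769-P groups overlapped, so the difference was 1.06 ± 0.20, or 0.45 with its probe sets averaged. Of the adhesion plaque proteins, VCL (vinculin) and ZYX (zyxin) had uncalled Caki-1 changes of -0.09 and 0.11 and fell in 769-P by 0.97 and 0.60. ACTN1, an actin crosslinker, fell by 0.44 in Caki-1 and 1.15 in 769-P, and TPM1, a tropomyosin, by 0.52 and 1.02. TPM4 and MYH9, the non-muscle myosin heavy chain, rose in Caki-1 by 0.25 and 0.26 and fell in 769-P by 0.56 and 0.32. CNN3, a calponin, and LIMA1, an actin bundler, were below 0, with falls of 0.88 and 0.52 in Caki-1. The call of LIMA1 was lost with its probe sets averaged (-0.24).

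A CArG box is the site that SRF binds, namely CC, a run of A and T letters, and GG. The 250 bases before the start given in each gene's RefSeq promoter entry (GRCh38.p14) were searched for it on both strands. Of the 26 members of the ERK and SRF lists that were called above 0 and had a promoter entry, 6 (23.1%) held the box, namely ACTG1, CNN2, EGR1, FHL2, SRF and TPM4. It was held by 1 of the 22 uncalled members with an entry (4.55%, ACTG2) and by 1.03% of the promoters of all 10469 tested genes with an entry. The lists hold genes known for SRF control, so their share is not independent of how they were chosen, and a match in these letters is a description and not a bound site. The motif was searched after the values were seen.

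The 6 promoters are shown as the members above 0 that hold the box. Each runs 5′ to 3′ on the gene's strand and ends at the base before the start in its promoter entry, with the CArG boxes in capitals. For FHL2 that start lies inside the gene span, which reaches chr2:105438529, so the last bases printed overlap the gene. The places are chr5:138465229-138465478 for EGR1, chr6:43171019-43171268 for SRF, chr2:105438514-105438763 for FHL2, chr19:1026358-1026607 for CNN2, chr19:16067288-16067537 for TPM4 and chr17:81512800-81513049 for ACTG1.

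EGR1: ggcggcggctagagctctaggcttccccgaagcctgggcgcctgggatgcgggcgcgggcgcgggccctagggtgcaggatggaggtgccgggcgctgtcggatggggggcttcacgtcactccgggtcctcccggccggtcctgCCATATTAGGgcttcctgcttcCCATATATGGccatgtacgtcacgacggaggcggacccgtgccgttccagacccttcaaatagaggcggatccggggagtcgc
SRF: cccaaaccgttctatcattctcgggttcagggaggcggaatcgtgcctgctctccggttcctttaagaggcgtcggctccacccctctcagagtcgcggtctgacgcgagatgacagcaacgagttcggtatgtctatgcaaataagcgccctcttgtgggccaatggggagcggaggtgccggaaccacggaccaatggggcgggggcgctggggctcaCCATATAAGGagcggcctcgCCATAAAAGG
FHL2: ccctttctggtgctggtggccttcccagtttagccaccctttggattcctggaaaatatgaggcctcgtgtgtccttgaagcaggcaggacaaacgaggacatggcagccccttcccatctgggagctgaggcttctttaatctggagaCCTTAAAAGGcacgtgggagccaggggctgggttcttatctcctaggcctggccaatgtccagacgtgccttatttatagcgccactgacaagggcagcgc
CNN2: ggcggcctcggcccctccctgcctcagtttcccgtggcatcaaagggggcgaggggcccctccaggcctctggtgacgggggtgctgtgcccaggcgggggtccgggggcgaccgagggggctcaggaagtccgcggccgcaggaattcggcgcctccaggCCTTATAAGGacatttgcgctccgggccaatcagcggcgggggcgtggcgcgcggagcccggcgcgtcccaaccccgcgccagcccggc
TPM4: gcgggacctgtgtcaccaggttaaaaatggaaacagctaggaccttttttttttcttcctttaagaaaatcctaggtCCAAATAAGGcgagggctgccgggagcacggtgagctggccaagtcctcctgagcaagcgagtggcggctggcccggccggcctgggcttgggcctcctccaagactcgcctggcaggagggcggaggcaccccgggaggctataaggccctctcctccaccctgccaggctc
ACTG1: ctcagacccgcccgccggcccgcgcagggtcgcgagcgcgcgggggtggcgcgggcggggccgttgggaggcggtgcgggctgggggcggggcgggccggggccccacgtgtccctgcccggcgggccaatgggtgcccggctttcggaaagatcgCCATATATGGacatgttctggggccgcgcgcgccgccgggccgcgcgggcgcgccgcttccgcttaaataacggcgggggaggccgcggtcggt

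EGR1 and SRF held 2 boxes each and the other 4 promoters 1 each. The boxes of SRF began 30 and 10 bases before its start and those of EGR1 105 and 83 bases before. The box of FHL2 began 101, that of CNN2 89, that of ACTG1 94 and that of TPM4 173 bases before the start. SRF itself fell by 0.32 in Caki-1 and by 0.72 in 769-P, a difference of 0.40 ± 0.12. ACTG1, cytoplasmic gamma actin, had a difference of 0.16 ± 0.05 and CNN2 one of 0.71 ± 0.14. Other motifs were searched in the same way. The metal response element, TGCACNC or TGCGCNC, was at 9 of 26 (34.6%, beside 32.5% of all tested genes). The AP-1 site TGANTCA was at 1 of 26 (3.85%, beside 4.14%) and the TEAD site GGAATG at 3 of 26 (11.5%, beside 9.49%). The CRE TGACGTCA was at 0 of 26 (beside 2.74%) and the FOXO site GTAAACA at 3 of 26 (11.5%, beside 1.89%). Of the 22 uncalled members with an entry, 7 held the metal response element, 1 the AP-1 site and 2 the TEAD site. Among these 22 the CRE was held by 3 (13.6%) and the FOXO site by 0.

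The EGF receptor family had members far out on both sides. Of 12 members, 3 were above 0 (25%, beside 8.67% of all genes) and 4 below (33.3%, beside 10.3%). With probe sets averaged 4 in place of 7 members were called. HBEGF, a membrane-shed EGF receptor ligand, read 8.12, 8.17 and 8.21 on the Caki-1 dasatinib arrays, against 8.32, 8.92 and 9.16 with DMSO. In 769-P it read 6.13, 6.35 and 5.78 with dasatinib, against 9.75, 9.50 and 8.94 with DMSO. The drop was seen in both lines without overlap and was larger in 769-P, with a difference of 2.68 ± 0.30 (adjusted p = 5.65e-07). ERBB3, the kinase-poor receptor that couples to PI3K, went the other way. It read 7.45, 8.28 and 8.20 on the Caki-1 dasatinib arrays, against 6.67, 7.10 and 7.13 with DMSO, and 9.57, 10.29 and 10.42 on the 769-P dasatinib arrays, against 5.57, 6.58 and 7.14 with DMSO. It rose in both lines, by 1.01 and 3.66, for a difference of -2.65 ± 0.45, or -1.48 with its probe sets averaged. TGFA, another ligand, fell by 0.99 in Caki-1 and 0.33 in 769-P, while ERBB2 and the ligand BTC rose in 769-P alone, by 0.33 and 0.96. The sheddases ADAM10 and ADAM17 had differences of 0.45 and 0.26, and the ADAM10 call was lost without 769-P DMSO replicate 3 (adjusted p = 0.0544).

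MYC and cyclin D1 fell in both lines and further in 769-P. MYC, the growth factor-induced transcription factor, read 10.68, 10.92 and 11.03 on the Caki-1 dasatinib arrays, against 11.89, 12.03 and 12.06 with DMSO, and 8.44, 8.17 and 8.66 on the 769-P dasatinib arrays, against 11.35, 11.29 and 11.02 with DMSO. The difference was 1.68 ± 0.21 (adjusted p = 3.02e-06). CCND1, which starts the G1 phase with CDK4 and CDK6, read 7.79, 7.91 and 8.26 on the Caki-1 dasatinib arrays, against 10.21, 10.51 and 10.77 with DMSO. It read 7.78, 7.84 and 8.01 on the 769-P dasatinib arrays, against 11.29, 11.15 and 11.12 with DMSO. The dasatinib arrays of the lines overlapped while the DMSO arrays did not, and the difference was 0.80 ± 0.24 (adjusted p = 0.0175). Without Caki-1 DMSO replicate 1 or Caki-1 dasatinib replicate 3 it was 0.66 each time and no longer called (adjusted p = 0.0588 and 0.0658).

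Most DNA replication genes fell in both lines. Of 40 DNA replication genes, 36 fell in Caki-1 and 37 in 769-P, beside 23.5% and 22.6% of all genes. The difference was called above 0 at 2 (5%) and below 0 at 4 (10%), beside 8.67% and 10.3% of all genes, and without Caki-1 dasatinib replicate 1 the 6 calls became 12. CDT1 and RFC5, which load the helicase and the sliding clamp, were above 0 at 1.01 and 1.09. GINS3, a helicase subunit, RRM2, which makes deoxynucleotides, ORC6 and RFC3 were below 0. RRM2 fell by 1.57 in Caki-1 and by 0.53 in 769-P. With its probe sets averaged RFC5 was at 0.37 and CDT1 at 0.63. Of 35 mitotic genes limma called none above 0 (0 at an unadjusted p under 0.05) and 1 below, CDK1 at -0.49, a call lost in 9 of the 12 fits that left out an array (adjusted p up to 0.142). Among 21 G1 cyclin and E2F genes 4 were above and 1 below 0. The 5 calls became 3 in each of 6 fits, those without Caki-1 DMSO replicate 1, Caki-1 dasatinib replicate 1 or 3, 769-P DMSO replicate 2 or 769-P dasatinib replicate 1 or 2, and 2 with probe sets averaged. CCNE1, cyclin E, fell in both lines, with changes of -1.66 in Caki-1 and -2.23 in 769-P. Of the CDK inhibitors, 1 of 7 was called, CDKN2D at 0.60, and that call was lost in 6 of the 12 fits that left out an array (adjusted p up to 0.092). The list had 2 calls with probe sets averaged. CDKN1C, which encodes p57, rose by 3.65 and 2.94 with a difference of 0.71 ± 0.42 (adjusted p = 0.268), but 1.13 (adjusted p = 0.02) with its probe sets averaged. CDKN1A and CDKN1B, encoding p21 and p27, had differences of 0.12 ± 0.12 and -0.10 ± 0.13.

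Ribosome biogenesis genes and MYC targets fell in 34 of 39 cases in Caki-1 and in 31 in 769-P, beside 23.5% and 22.6% of all genes. Their median changes were -1.05 in each line. The difference was above 0 at 4 (10.3%) and below 0 at 6 (15.4%), beside 8.67% and 10.3% of all genes. DDX10, an RNA helicase of the small ribosomal subunit, read 7.39, 7.38 and 7.52 on the Caki-1 dasatinib arrays, against 8.39, 8.51 and 8.61 with DMSO. The 769-P arrays read 9.12, 9.49 and 9.39 with dasatinib, against 8.55, 8.61 and 8.58 with DMSO. It fell in Caki-1 and rose in 769-P, with a difference of -1.83 ± 0.15. ODC1, the first enzyme of polyamine synthesis and a MYC target, fell by 1.44 in Caki-1, with a change of -0.29 in 769-P, and DKC1, the pseudouridine synthase of small nucleolar particles, by 0.90, with a change of -0.03. MYC itself was the member furthest above 0.

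YAP and TEAD genes had 9 of 32 members above 0 (28.1%, beside 8.67% of all genes) and 5 below (15.6%, beside 10.3%). Their median difference was -0.05. The best-known targets CCN1 and CCN2, matricellular proteins, fell strongly in both lines. CCN1 read 8.22, 7.30 and 7.71 on the Caki-1 dasatinib arrays, against 10.74, 11.09 and 11.11 with DMSO, and 9.76, 9.01 and 9.06 on the 769-P dasatinib arrays, against 11.97, 12.04 and 11.96 with DMSO, a difference of -0.52 ± 0.39 (adjusted p = 0.396). CCN2 had a difference of -0.71 ± 0.33 (adjusted p = 0.138). Its 769-P dasatinib arrays, at 4.55, 4.38 and 4.30, lay under the filter level, and with values under 5.363 raised to it the difference was -1.67 (adjusted p = 8.33e-06). With its probe sets averaged the CCN2 difference was -1.68 and also called (adjusted p = 6.79e-05). WWTR1, which encodes the YAP paralogue TAZ, fell by 0.66 in Caki-1 and by 1.61 in 769-P. AMOTL1, an angiomotin, and TGM2, transglutaminase, rose in Caki-1 by 0.34 and 0.53 and fell in 769-P by 0.77 and 0.41. F3, tissue factor, and FJX1 fell further in Caki-1, with differences of -1.32 and -1.04.

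FOXO factors and quiescence genes rose in 19 of 25 cases in each line, beside 23.2% of all genes in Caki-1 and 25.1% in 769-P, and the difference was called above 0 at 4 and below 0 at 4 (16% each). FOXO1 read 10.80, 10.83 and 10.82 on the Caki-1 dasatinib arrays, against 8.06, 7.70 and 7.66 with DMSO, and 9.56, 9.40 and 9.30 on the 769-P dasatinib arrays, against 8.87, 8.80 and 8.59 with DMSO. It rose without overlap in each line and by more in Caki-1, with a difference of 2.33 ± 0.13 (adjusted p = 9.28e-12). PDK4, the FOXO target that shuts off pyruvate entry into mitochondria, read 8.85, 9.62 and 9.73 on the Caki-1 dasatinib arrays, against 4.74, 4.18 and 4.75 with DMSO. The 769-P arrays read 4.98, 6.08 and 5.98 with dasatinib, against 4.18, 4.56 and 4.75 with DMSO. Its difference was 3.66 ± 0.46 (adjusted p = 2.51e-06), reckoned from DMSO values under the filter level in both lines. With probe sets averaged, FOXO1 was at 1.27 and PDK4 at 2.04.

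Other members of the list rose more in 769-P. ERBB3 is given above, and ARRDC4, an arrestin-like glucose regulator, read 8.0, 7.93 and 7.99 on the Caki-1 dasatinib arrays, against 7.62, 7.17 and 7.30 with DMSO, and 8.89, 10.31 and 10.22 on the 769-P dasatinib arrays, against 6.77, 7.45 and 7.75 with DMSO. Its difference was -1.87 ± 0.46 (adjusted p = 0.00474). BCL2L11, which encodes the death protein BIM, rose by 0.94 in Caki-1 and 1.77 in 769-P, and CITED2, a transcriptional cofactor, fell by 0.35 in Caki-1 and rose by 0.60 in 769-P. With its probe sets averaged the BCL2L11 difference was -0.30 in place of -0.83.

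Fibrinogen, complement and secretory genes held 3 of the 12 largest differences above 0 that the naming rule took. FGA, the fibrinogen alpha chain, read 9.68, 9.44 and 9.45 on the Caki-1 dasatinib arrays, against 5.75, 5.70 and 5.92 with DMSO. In 769-P it read 5.31, 5.32 and 4.81 with dasatinib, against 5.02, 5.01 and 4.69 with DMSO, all under the filter level. FGB, the beta chain, was well measured in both lines. It read 11.90, 11.61 and 11.58 on the Caki-1 dasatinib arrays, against 9.12, 8.64 and 8.64 with DMSO, and 11.11, 11.34 and 10.47 on the 769-P dasatinib arrays, against 10.81, 10.75 and 10.45 with DMSO. It rose in Caki-1 without overlap, the 769-P groups overlapped, and the difference was 2.59 ± 0.32 (adjusted p = 1.9e-06).

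RBP4, the plasma carrier of retinol, read 11.35, 11.93 and 12.07 on the Caki-1 dasatinib arrays, against 8.30, 8.95 and 8.80 with DMSO, while all 769-P arrays lay between 4.58 and 5.25. FGA was at 3.49 ± 0.24, or 2.31 with its probe sets averaged, and RBP4 at 2.98 ± 0.28. In all, 6 of 16 members were above 0 (37.5%, beside 8.67% of all genes) and 2 below (12.5%, beside 10.3%). Of the 16, 3 were low in 769-P throughout, FGA and RBP4 among them. The 8 calls became 5 without Caki-1 DMSO replicate 2 or Caki-1 dasatinib replicate 2 or 3, and 4 without 769-P DMSO replicate 2. CP, ceruloplasmin, and C1R, a complement protease, were above 0 at 0.85 and 0.88. C3, the central complement protein, and CD55, which dissolves complement convertases, rose in both lines, by 0.76 and 0.59 in Caki-1 and by 1.64 and 1.36 in 769-P. The C3 call was lost without 769-P DMSO replicate 2 (adjusted p = 0.0579).

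**Figure D3:**
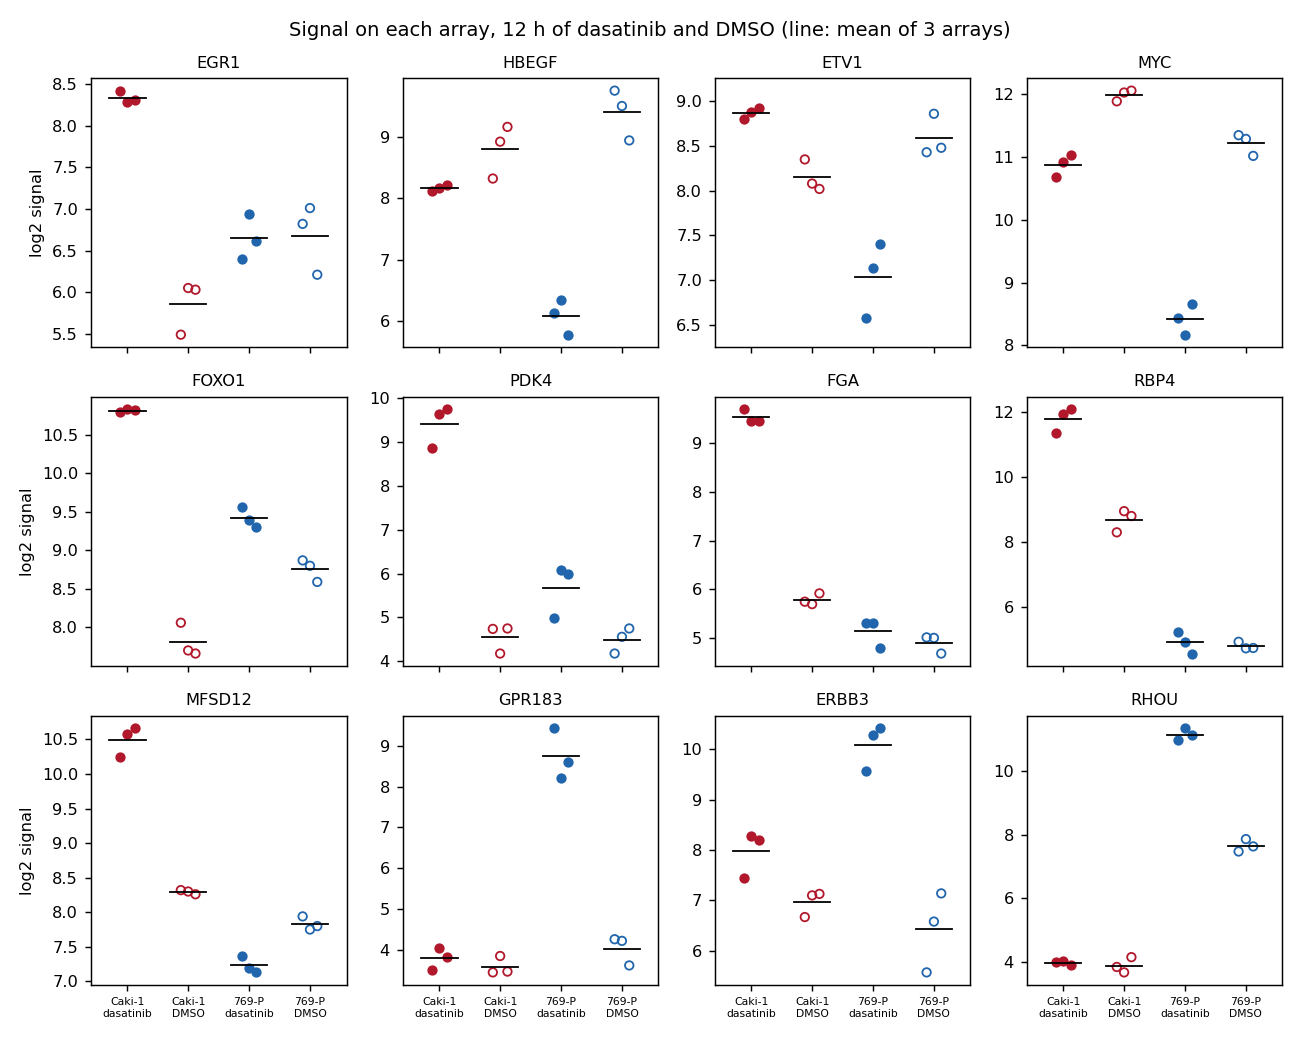
Log2 signal on each of the 12 arrays for 12 genes, by line and treatment, with filled circles for dasatinib at 12 h, open circles for DMSO and a line at the mean of 3 arrays. The vertical scale differs between genes. EGR1, FGA and RBP4 separate the Caki-1 groups alone, GPR183 and RHOU the 769-P groups alone, and MFSD12 and ETV1 move in opposite directions.

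The list of metallothioneins, which bind zinc and copper, and of zinc handling genes had 4 of 15 tested members above 0 (26.7%) and none below in limma, beside 8.67% and 10.3% of all genes (6 above and 0 below at an unadjusted p under 0.05). The called members were 3 of the 8 metallothioneins tested, namely MT1G, MT1H and MT1M, and MTF1, and with the filter passed in both lines the list had 2 calls. The metallothionein paralogues are near-identical in sequence, so signal can be shared among their probe sets. MT1G read 11.50, 8.96 and 9.19 on the Caki-1 dasatinib arrays, against 7.90, 7.52 and 7.45 with DMSO, and 7.29, 7.03 and 7.59 on the 769-P dasatinib arrays, against 7.21, 7.30 and 7.24 with DMSO. The first Caki-1 dasatinib array stood apart, and without it the difference of 2.21 ± 0.63 was 1.40 (adjusted p = 0.0285). MT1H and MT1M, low in 769-P throughout, were at 1.56 and 1.18. MT1F rose by 4.39 in Caki-1 and by 3.73 in 769-P, and its difference of 0.66 ± 0.38 was not called. MTF1, the zinc-sensing factor that drives these genes, rose by 0.44 in Caki-1, with a change of 0.02 in 769-P.

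In the ATF4 and unfolded protein response list 7 of 28 members were above 0 (25%) and 4 below (14.3%), beside 8.67% and 10.3% of all genes. Without Caki-1 DMSO replicate 2 the 11 calls became 7. The serine and one-carbon enzymes were furthest out. MTHFD2, the mitochondrial folate enzyme, read 12.00, 11.71 and 11.64 on the Caki-1 dasatinib arrays, against 12.61, 12.64 and 12.67 with DMSO, and 7.73, 7.44 and 7.49 on the 769-P dasatinib arrays, against 10.83, 10.56 and 10.37 with DMSO. It fell in both lines and further in 769-P, a difference of 2.17 ± 0.17 (adjusted p = 3.31e-09). PSAT1, a serine synthesis enzyme, had an uncalled change of 0.09 in Caki-1 and fell by 1.39 in 769-P, whereas PSPH, the last enzyme of that path, rose by 0.64 in 769-P alone. ATF4 itself had a difference of 0.25 ± 0.08. The chaperone HSPA5 fell by 0.20 and 0.65, and DDIT4, an inhibitor of mTOR signalling, rose by 1.93 and 2.88.

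NRF2 targets rose in 18 of 27 cases in each line, beside 23.2% of all genes in Caki-1 and 25.1% in 769-P. Of the members, 2 were above 0 (7.41%, beside 8.67% of all genes) and 5 below (18.5%, beside 10.3%). HMOX1, haem oxygenase, read 7.58, 7.94 and 8.0 on the Caki-1 dasatinib arrays, against 6.63, 6.41 and 5.88 with DMSO, and 11.24, 11.17 and 11.76 on the 769-P dasatinib arrays, against 9.20, 8.43 and 8.79 with DMSO. The difference was -1.05 ± 0.28 (adjusted p = 0.00941). GCLC and GCLM, the subunits that make the first step of glutathione synthesis, had uncalled changes of 0.28 and -0.14 in Caki-1 and rose in 769-P by 1.44 and 0.38. NFE2L2, which encodes NRF2, was above 0 at 0.34, and so was AKR1C3, an aldo-keto reductase, at 0.72, or 0.21 and not called with its probe sets averaged.

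Matrix proteases and the urokinase system had 5 of 12 members above 0 (41.7%) and 2 below (16.7%), beside 8.67% and 10.3% of all genes. PLAU, urokinase, read 11.06, 11.03 and 11.08 on the Caki-1 dasatinib arrays, against 12.08, 12.06 and 12.05 with DMSO, and 9.63, 9.63 and 9.78 on the 769-P dasatinib arrays, against 12.10, 11.85 and 11.88 with DMSO. The lines began at a like level and parted on the drug, with a difference of 1.25 ± 0.15 (adjusted p = 1.29e-06). Its receptor PLAUR followed the same course, with changes of -0.58 in Caki-1 and -1.86 in 769-P and a difference of 1.28 ± 0.20, or 0.84 with probe sets averaged. PLAT, the tissue activator, did the reverse, falling by 1.71 in Caki-1 with a change of -0.32 in 769-P. ADAMTS1, a proteoglycan-cutting protease, fell by 1.18 in Caki-1 and rose by 0.70 in 769-P.

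Of the TGF-beta, BMP and ID genes 8 of 20 were above 0 (40%) and 3 below (15%), beside 8.67% and 10.3% of all genes. The ligand INHBA, the activin subunit, fell by 0.59 in Caki-1 and by 2.33 in 769-P, and BMP2 rose by 0.70 in Caki-1 and fell by 0.82 in 769-P. BAMBI, a decoy receptor, fell by 0.82 and 1.87. SMAD3 and TGFBI, a signal transducer and a TGF-beta-induced matrix protein, rose in Caki-1 by 0.50 and 0.61, with changes of -0.23 and -0.16 in 769-P. ID4, an inhibitor of bHLH factors, lay under the filter level on all Caki-1 arrays of these groups (3.70 to 4.39) and read 11.87, 12.01 and 11.80 on the 769-P dasatinib arrays, against 9.31, 9.86 and 9.85 with DMSO. ID1 and ID2 rose in both lines, with differences of 0.45 and -0.87.

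Extracellular matrix genes were above 0 at 6 of 24 (25%) and below at 2 (8.33%), beside 8.67% and 10.3% of all genes. Of the 24, 5 were low in 769-P throughout. The 8 calls became 4 with the filter passed in both lines or with probe sets averaged, and 5 without Caki-1 dasatinib replicate 2. LUM and DCN, small leucine-rich proteoglycans, rose in Caki-1 by 2.36 and 1.83 and were low in 769-P throughout. LUM read 7.08, 7.89 and 7.44 on the Caki-1 dasatinib arrays, against 5.10, 5.07 and 5.15 with DMSO, while the 769-P arrays lay between 2.95 and 3.73. COL5A2, a fibrillar collagen chain, fell by 0.70 in Caki-1 and rose by 0.88 in 769-P, a difference of -1.58 ± 0.17, or -0.52 with probe sets averaged. Of 15 epithelial genes tested, 4 were above 0 (26.7%) and 1 below (6.67%). CDH1, E-cadherin, read 6.31, 8.44 and 8.73 on the Caki-1 dasatinib arrays, against 5.02, 5.73 and 5.79 with DMSO. Its 769-P arrays, at 3.98 to 4.85, all lay under the filter level, so it has no measured response there. Its difference of 2.07 ± 0.58 was 1.62 and not called without Caki-1 dasatinib replicate 3 (adjusted p = 0.055), and 1.12 with probe sets averaged.

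**Figure D4:**
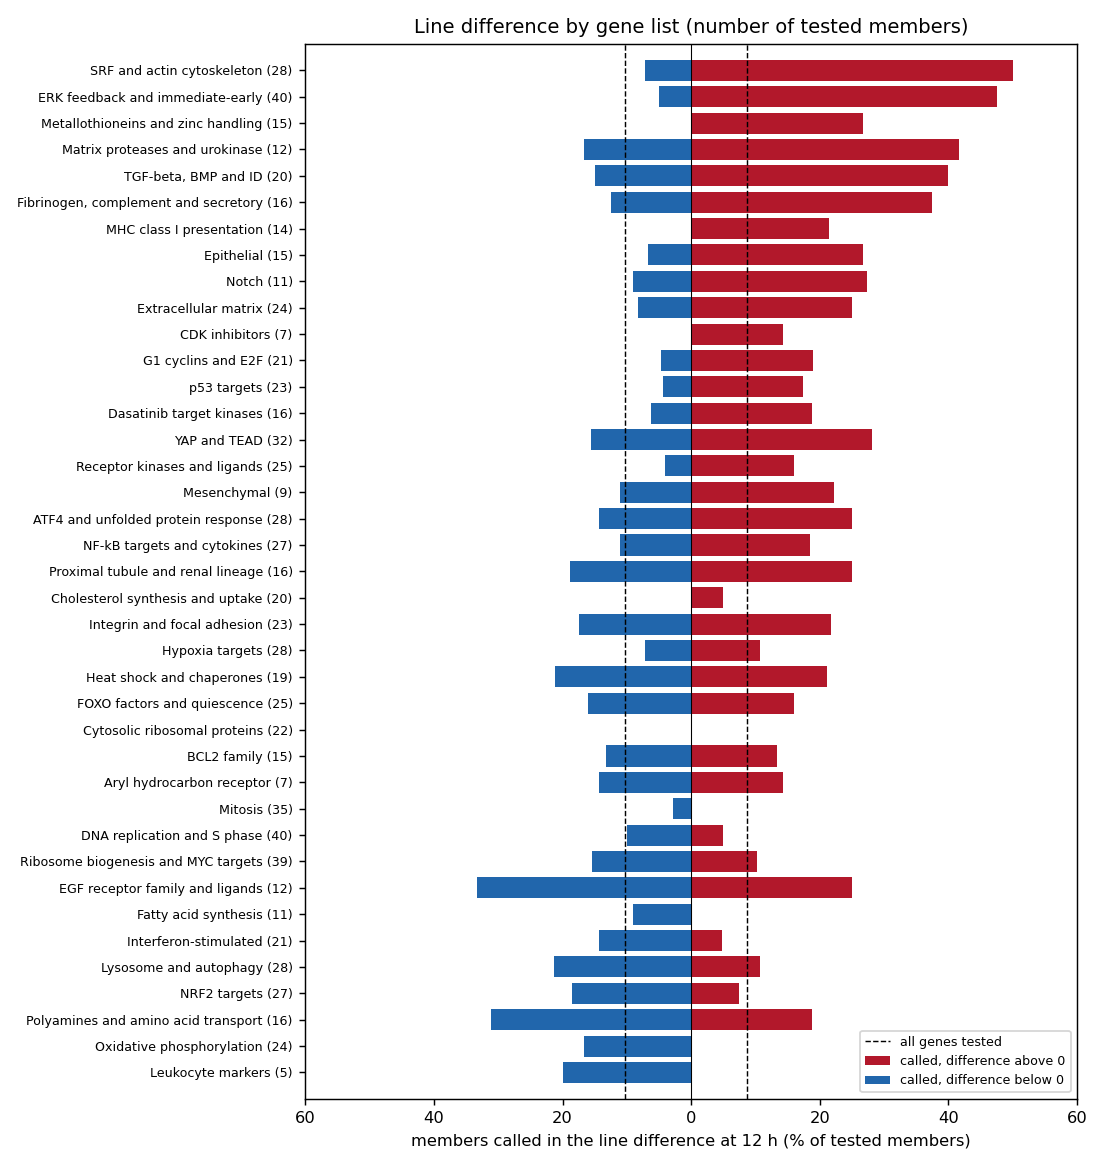
Share of tested members (%) called with a difference above 0 (red, to the right) and below 0 (blue, to the left) for the 39 lists with at least 5 tested members, ordered by the excess of members above over below 0, with the number tested in parentheses. Dashed lines mark 8.67% and 10.3%, the shares over all tested genes. The SRF and ERK lists reach 50% and 47.5% above 0, while mitotic and cytosolic ribosomal protein genes lie close to the centre.

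The largest differences of all were often genes that 1 line alone expressed. GPR183, an oxysterol receptor, gave the lowest value of all genes, -4.49 ± 0.41 (adjusted p = 3.2e-08). The Caki-1 arrays stayed between 3.46 and 4.05, while it read 9.42, 8.21 and 8.60 on the 769-P dasatinib arrays, against 4.27, 4.23 and 3.63 with DMSO. RHOU read 3.66 to 4.14 in Caki-1, and 10.97, 11.35 and 11.13 on the 769-P dasatinib arrays, against 7.47, 7.86 and 7.63 with DMSO. MAF, a bZIP factor, KCNJ8 and KCNJ13, inward-rectifier potassium channels, SEMA5A, a semaphorin, NKD2, an inhibitor of WNT signalling, and HSD17B2, a steroid dehydrogenase, had the same form, with Caki-1 levels under the filter and rises of 2.56 to 3.59 in 769-P. NKD2, HSD17B2 and GPR183 also had 769-P DMSO means under the filter level (4.83, 4.60 and 4.04). Their rises are thus reckoned from low values. With probe sets averaged MAF was at -1.36 in place of -3.44 and SEMA5A at -2.05 in place of -3.36.

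PCK1, the gluconeogenic enzyme of the proximal tubule, rose by 2.99 in 769-P. In Caki-1 its level stayed at 3.44 to 4.22, under the filter level, so its change of 0.50 there is no measured response. NRCAM, a cell adhesion molecule, and SORBS2, an adaptor of the actin cytoskeleton, were measured in both lines and rose in 769-P alone, by 2.65 and 3.07. FLG, filaggrin, read 8.23, 7.0 and 6.94 on the Caki-1 dasatinib arrays, against 10.67, 9.96 and 10.04 with DMSO, and 3.84 to 4.17 in 769-P, so its fall in Caki-1 had no counterpart to measure.

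Above 0 the extreme was GABRB1, a GABA-A receptor subunit, at 3.90 ± 0.26 (adjusted p = 2e-10). It read 3.50 to 3.73 over the Caki-1 arrays, and 4.18, 4.19 and 4.61 on the 769-P dasatinib arrays, against 8.65, 8.18 and 8.05 with DMSO. The positive sign thus stands for a Caki-1 level under the filter beside a fall in 769-P. ABTB3, an ankyrin and BTB domain protein, had the same form, falling by 3.19 in 769-P. RETREG1, a receptor for autophagy of the endoplasmic reticulum, read 9.85, 9.82 and 9.80 on the Caki-1 dasatinib arrays, against 7.38, 6.99 and 6.87 with DMSO, and 6.12, 6.22 and 6.27 on the 769-P dasatinib arrays, against 6.09, 6.42 and 6.87 with DMSO. It was measured in both lines and rose in Caki-1 alone, a difference of 3.01 ± 0.22 (adjusted p = 1.43e-09).

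Among the 240 genes that moved in opposite directions, the difference was above 0 at 130 and below 0 at 110. MFSD12, a lysosomal and melanosomal transporter, read 10.25, 10.58 and 10.66 on the Caki-1 dasatinib arrays, against 8.32, 8.30 and 8.26 with DMSO, and 7.37, 7.20 and 7.13 on the 769-P dasatinib arrays, against 7.94, 7.75 and 7.80 with DMSO. ACSL4, which activates arachidonic acid, read 12.89, 13.34 and 13.35 on the Caki-1 dasatinib arrays, against 11.81, 11.79 and 12.02 with DMSO, and 10.13, 9.75 and 9.85 on the 769-P dasatinib arrays, against 10.89, 11.04 and 11.24 with DMSO. No groups overlapped within a line for either gene. AKAP12, a scaffold for kinase A and a SRC-suppressed gene, rose by 1.27 in Caki-1 and fell by 1.01 in 769-P, and TNFAIP6, which binds hyaluronan, rose by 1.56 in Caki-1 and fell by 0.76 in 769-P. TMCC3 rose by 1.24 and fell by 1.14.

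Below 0, KCNH1, a voltage-gated potassium channel, read 6.04, 5.89 and 5.62 on the Caki-1 dasatinib arrays, against 7.52, 7.66 and 7.60 with DMSO, and 6.95, 7.30 and 6.89 on the 769-P dasatinib arrays, against 6.06, 6.04 and 6.30 with DMSO. Its difference was -2.66 ± 0.19, or -1.24 with probe sets averaged. FAT4, an atypical cadherin of the Hippo pathway, fell by 0.71 in Caki-1 and rose by 1.55 in 769-P. DNER, a Notch ligand of neurons, fell by 0.63 and rose by 1.50, but its 769-P DMSO arrays read 4.30, 4.02 and 4.22, and with low values raised to 5.363 the difference was -0.94 in place of -2.13. ARHGAP42 fell by 0.58 and rose by 1.52, and with its probe sets averaged the difference was -1.39 in place of -2.10. IVNS1ABP, a kelch protein, fell by 0.65 and rose by 1.29.

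At 6 h 1041 genes (8.09%) were called in the same comparison of the lines, 3.68% above and 4.42% below 0. At 24 h 4629 genes (36%) were called, 13.8% above and 22.2% below 0. The 3 times share their DMSO arrays, so their values are given side by side. MYC had differences of 2.38 at 6 h, 1.68 at 12 h and 0.06 at 24 h, the last not called (adjusted p = 0.86). DUSP6 had 1.36, 0.52 and -0.86, called at 6 h and 24 h and not at 12 h. HMOX1 had -2.01, -1.05 and -0.08, and DDIT4 -1.01, -0.95 and 0.07, so both were called at 6 h and 12 h and not at 24 h. EGR1 had 2.27, 2.52 and 1.79, HBEGF 2.53, 2.68 and 1.52, and FOXO1 2.05, 2.33 and 2.20, called at each time.

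Like EGR1, HBEGF and FOXO1, the genes that follow lay furthest from 0 at 12 or 24 h. DNER had -0.25, -2.13 and -4.78 at 6, 12 and 24 h and CDH1 0.44, 2.07 and 3.90, neither called at 6 h. COL5A2 had -0.77, -1.58 and -3.01, RBP4 0.91, 2.98 and 3.90, and GABRB1 1.08, 3.90 and 4.87. GPR183 had -2.69, -4.49 and -3.56, furthest from 0 at 12 h, and MTHFD2 1.16, 2.17 and 1.44, and COL5A2, RBP4, GABRB1, GPR183 and MTHFD2 were called at each time. CDK1 had -0.13, -0.49 and 0.84, with the calls at 12 h and 24 h of opposite sign. Whether a difference changed between the times was not tested.

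**Figure D5:**
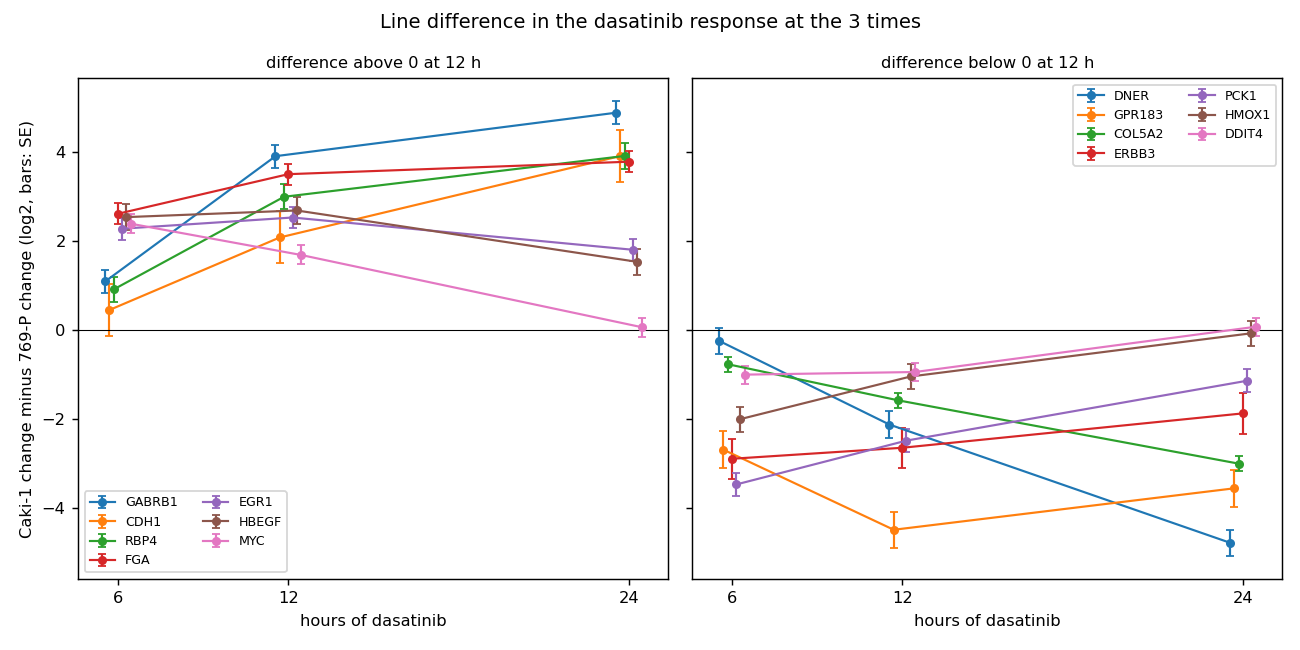
Caki-1 change minus 769-P change (log2, bars show SE) at 6, 12 and 24 h of dasatinib for genes above 0 at 12 h on the left and below 0 on the right, each time measured against the same 3 DMSO arrays of a line. MYC, HMOX1 and DDIT4 are at 0.06, -0.08 and 0.07 at 24 h, whereas GABRB1, CDH1, DNER and COL5A2 lie furthest from 0 then.

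The lines differed under DMSO at 1903 of the 2434 called genes and at 5646 of the 10428 that were not called. Both comparisons use the same DMSO arrays, so these counts are not independent, and a link between them was not tested. Of the drug's target kinases, 3 of 16 were above 0 (18.8%, beside 8.67% of all genes) and 1 below (6.25%, beside 10.3%). SRC had a difference of -0.02 ± 0.17 (adjusted p = 0.968), with 8.03, 8.18 and 8.09 on the Caki-1 dasatinib arrays, against 8.20, 8.15 and 8.23 with DMSO, and 7.71, 7.77 and 8.03 on the 769-P dasatinib arrays, against 7.77, 7.79 and 8.17 with DMSO. ABL1 had an uncalled change of 0.13 in Caki-1 and fell by 0.29 in 769-P, with a difference of 0.43 ± 0.12, or 0.27 and not called with probe sets averaged (adjusted p = 0.0791).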

How the data were processed

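RNA of the 24 arrays was measured on PrimeView arrays. The authors deposited log2 signal values for every probe set on every array. MAS5 is the tool given in the submitters' processing notes, with no settings. PrimeView lacks mismatch probes, and the way MAS5 was run on it and the scaling between arrays are not given in the sources used here. Raw intensities were not used here.

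Of 49395 probe sets, 102 were controls, 44988 named 1 gene, 1832 several and 2473 had no entry in the platform annotation. The gene ID of 44961 probe sets matched the RefSeq genes of GRCh38.p14. Group means over all 24 arrays in 8 groups were fitted in limma 3.58.1 (R 4.3.3, package data.table in version 1.17.8) with an intensity trend and 16 residual degrees of freedom, and p-values were adjusted by the Benjamini-Hochberg method over all 12862 genes of a comparison. Genes with an adjusted p under 0.05 are called, and "rose" and "fell" are used of called changes. The fit was tested on simulated data. Errors beside differences are SEs of the fit.

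Genes were named by rule: the 12 called genes furthest from 0 on each side whose highest group mean exceeded the median probe set mean (6.081), up to 2 called members per list and direction or the furthest uncalled one, the 6 furthest per direction among opposite movers, and 16 genes set by name for ties to the drug. Other list members given are from the 40 gene lists (919 genes, 788 tested). Members, lists and rules were chosen with earlier results of these data known. Lists are described by counts and medians only.

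The alternatives were: the 12 arrays alone, no filter, the filter in both lines, the mean of all probe sets, quantile normalization, median centring, a floor on low values, no intensity trend, a replicate block, and leaving out each array.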

Additional observations from a re-analysis of the deposited data

Results flagged for a closer look

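The 2 lines differed under the same contrast, tested as an interaction term, at 2434 genes at 12 h. Of the genes called in opposite directions in the lines, 12 had been named by rule. Those above 0 were MFSD12 at 2.80, ACSL4 at 2.47, TMCC3 at 2.38, TNFAIP6 at 2.31, AKAP12 at 2.28 and ETV1 at 2.27. Those below 0 were KCNH1 at -2.66, FAT4 at -2.27, DNER at -2.13, ARHGAP42 at -2.10, IVNS1ABP at -1.94 and TMEM133 at -1.94. TMEM133 fell by 0.48 in Caki-1 and rose by 1.45 in 769-P. It has no entry in the gene table used here, so whether it is a gene apart from the others named was not checked. FAT4 had a difference of -1.05 at 6 h that was not called (adjusted p = 0.0524), while DNER was at -0.25 then. The values of DNER, ARHGAP42 and KCNH1 moved by over 1.5 times between processing choices, as given with each gene above.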

How the results depend on the processing

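No direction of a named called gene turned in the 21 settings tried, and of 2434 calls 1 turned sign with a floor on low values and 16 with the mean of all probe sets. The count of called genes was 2328 with the 12 arrays alone, 2333 without a filter, 2112 with the filter in both lines, 2088 with the mean of all probe sets, 2452 after quantile normalization, 2432 after median centring, 2586 with a floor and 2294 without the intensity trend. The count at 1 or more on the log2 scale was 314 in place of 503 with the mean of all probe sets, where 1730 of 2312 calls tested stayed called in the same direction. The choice of probe set was thus the setting that moved most named genes. Leaving out 1 array at a time gave 1991 to 2597 called genes, 894 to 1201 above 0, 1040 to 1396 below 0, 490 to 542 at 1 or more, 177 to 249 in opposite directions, 197 to 256 list genes, 132 to 140 of 144 named calls, 823 to 1122 called at 6 h, 4044 to 4748 at 24 h and 6968 to 7598 under DMSO. The replicate block gave 2986 called genes and kept 2426 of the 2434. With it NRF2 targets had 11 calls in place of 7 and hypoxia targets 9 in place of 5. Cholesterol synthesis had 5 in place of 1, and mitosis and fatty acid synthesis 3 each in place of 1. Receptor kinases and ligands had 8 in place of 5, and the aryl hydrocarbon receptor list 4 in place of 2. To look for pairs, the mean of its group was subtracted from each array, gene by gene. Equally numbered dasatinib and DMSO arrays then correlated at 0.165, 0.084 and -0.023 in Caki-1 and at 0.277, 0.059 and 0.291 in 769-P. Each 769-P dasatinib array correlated best with its own number (highest other values -0.095, -0.004 and 0.05), and in Caki-1 replicate 1 alone did. The labels do not call the numbers pairs, so the main fit did not use them, and whether they are pairs stays unsettled. The precision is that of 3 arrays per group.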

Other observations

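In limma 8.67% of all genes were called above 0 and 10.3% below. Within a line, 23.2% rose and 23.5% fell in Caki-1, and 25.1% rose and 22.6% fell in 769-P. The counts of proteostasis, immune and metabolic genes are read against these shares. Of 19 heat shock and chaperone genes, 14 fell in Caki-1 and 15 in 769-P, with 4 above and 4 below 0 (21.1% each). The members below 0 included the small heat shock genes CRYAB, which had an uncalled change of 0.10 in Caki-1 and rose by 2.09 in 769-P, and HSPB8, which rose by 1.10 in 769-P, and the CRYAB difference was -1.10 in place of -1.99 with its probe sets averaged. Among 28 genes of the lysosome and autophagy, 17 rose in Caki-1 and 18 in 769-P, with 3 above and 6 below 0 (10.7% and 21.4%). NPC1, the lysosomal cholesterol exporter, rose by 1.62 in Caki-1 and by 0.31 in 769-P. Interferon-stimulated genes rose in 13 of 21 cases in each line. Their difference was above 0 at 1 and below 0 at 3 (4.76% and 14.3%), near the shares of all genes called above and below 0. The 4 calls became 2 without Caki-1 dasatinib replicate 1 or 3 or 769-P dasatinib replicate 2. RIGI, the viral RNA sensor, rose by 0.46 in Caki-1 and 1.57 in 769-P. MHC class I genes had 3 of 14 above 0 (21.4%) and none below in limma (0 below at an unadjusted p under 0.05), led by NLRC5, their transactivator, which rose by 1.31 in Caki-1 with a change of -0.34 in 769-P. Without Caki-1 DMSO replicate 2 or Caki-1 dasatinib replicate 2 or 3, or with probe sets averaged, 1 of the list was called. NF-kB targets were above 0 at 5 and below 0 at 3 of 27 (18.5% and 11.1%), and 7 of the 27 were low in 769-P throughout. Of the list, 5 in place of 8 were called without Caki-1 DMSO replicate 3 or 769-P DMSO replicate 2. CXCL8, a neutrophil chemokine, was at -1.30, a call lost in 7 of the fits that left out an array (adjusted p up to 0.109).

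None of 22 cytosolic ribosomal protein genes was called in limma (1 above and 1 below 0 at an unadjusted p under 0.05), with differences of -0.11 to 0.14, and 1 was called without Caki-1 dasatinib replicate 1 or 769-P dasatinib replicate 1. Cholesterol synthesis had 1 of 20 above 0 (SQLE, 0.70, a call lost in 5 of the fits that left out an array, with 0 to 3 calls in the list over these fits), oxidative phosphorylation 4 of 24 below 0 (16.7%, beside 10.3% of all genes), and fatty acid synthesis 1 of 11 below 0 (9.09%, with 3 called without Caki-1 dasatinib replicate 1), the elongase ELOVL6, which fell by 0.47 in Caki-1 and rose by 0.93 in 769-P. Hypoxia targets were above 0 at 3 and below 0 at 2 of 28 (10.7% and 7.14%, near the shares of all genes). The 5 calls became 10 without Caki-1 dasatinib replicate 1, 1 without Caki-1 dasatinib replicate 2 or 3, and 3 without 769-P DMSO replicate 2 or 3 or 769-P dasatinib replicate 2. SLC1A5, a glutamine transporter, rose by 0.31 in Caki-1 and fell by 1.09 in 769-P, and the polyamine and amino acid transport list had 3 of 16 above (18.8%) and 5 below 0 (31.2%). Integrin and adhesion genes had 5 of 23 above and 4 below 0 (21.7% and 17.4%), with ITGB8 rising by 1.75 in 769-P alone and ITGA3 changing by -0.70 in Caki-1 and -1.92 in 769-P. With their probe sets averaged ITGB8 was at -1.16 in place of -1.76 and ITGA3 at 0.74 in place of 1.23. In the BCL2 family, 2 of 15 were above and 2 below 0 (13.3% each). BCL2, the survival protein, fell by 1.05 in Caki-1 and rose by 0.53 in 769-P, while PMAIP1, which encodes the death protein NOXA, fell by 0.78 in Caki-1 and fell by 2.23 in 769-P. The BCL2 difference was -0.47 in place of -1.58 with its probe sets averaged. AHRR, the repressor of the aryl hydrocarbon receptor, rose by 1.29 in Caki-1 and 2.99 in 769-P, but its difference of -1.69 was -0.82 and not called with a floor on low values (adjusted p = 0.0666).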
